A study of Mus musculus with 8 samples.

Results

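The genes described here are Il6, Lif, Osm, Il10, Csf1, Csf2 and Csf3, which encode secreted cytokines, and Il6ra and Il10ra, which encode the specific receptor chains for IL-6 and IL-10. They were taken by symbol, and all 9 were found among the 21080 symbols of the expression tables. The cells were bone marrow-derived macrophages (BMDMs, bone marrow cells grown into macrophages in culture) of C57BL/6 mice, and their RNA was sequenced. In the Nudt21-cKO group (cKO), Nudt21 fl/fl was combined with LysM-Cre, a Cre expressed in myeloid cells from the Lyz2 locus, and the WT group was made of sex-matched littermates that also carried the LysM Cre. BMDMs of each genotype were analysed without stimulation (0 h) and after IFNγ overnight followed by LPS for 4 h, with 2 samples in each of the 4 groups. Each sample pooled the BMDMs of 2 mice, so the spread between samples is a spread between pools.

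IL-6, leukemia inhibitory factor (Lif) and oncostatin M (Osm) belong to a family that signals through the shared receptor chain gp130, the product of Il6st, and activates STAT3. IL-10 also activates STAT3, through Il10ra and Il10rb, and is known for restraining macrophage activation. The colony-stimulating factors M-CSF (Csf1), GM-CSF (Csf2) and G-CSF (Csf3) drive the growth and maturation of macrophages and granulocytes, and M-CSF was the factor in which these cells were grown.

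Expression was given as coverage, the mean number of reads over each base of a gene, which is a level per length and can be set side by side between genes. Summed over all genes, coverage ran from 14950347 to 17954882 per sample, and the totals differed by genotype. At 4 h the cKO totals were 17360205 and 17954882, above those of the WT samples (15552049 and 14950347). At 0 h the cKO totals, 16650103 and 17744522, also lay above the WT totals, 15751245 and 15827594. Unless stated, values were compared without scaling the samples to equal totals. The libraries were paired-end and deeply sequenced, but the tables give no read count behind a value, so no counting interval is given. At 4 h Nudt21 itself had a coverage of 547 and 575 in WT and 142 and 115 in cKO. Its log2 fold change was -2.13 ± 0.16 (SE, limma adjusted p = 0.0445) at 4 h and -2.04 ± 0.13 (limma adjusted p = 0.0462) at 0 h. All 8 macrophage markers were present in every group, with summed coverage of 123890 to 133957 at 0 h and 58313 to 70898 at 4 h. At 0 h Cd68 was at 45504 and 42908 in WT and 69414 and 73397 in cKO. Without Cd68 the 0 h sums were 78385 to 88425 in WT and 55544 to 60559 in cKO, which did not overlap. Markers of other cells were lower: the 5 T cell markers summed to 16.3 to 199.6 over the 8 samples with Cd3e, Cd8a and Trac at 0 in all 0 h samples, and the 4 B cell markers to at most 4.36. The 6 neutrophil markers summed to 14919 to 28229, almost all of it S100a8 and S100a9, while Ly6g did not exceed 7.37. The 5 dendritic cell markers summed to 12.5 to 36.7 at 0 h and 1223 to 2146 at 4 h, mainly Clec9a. In bulk RNA, fewer cells of a type and less RNA per cell cannot be told apart.

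Changes with stimulation were larger than those between the genotypes for most of these genes. By 4 h, 7 of the 9 genes were called higher in each genotype, where 11.7% of all genes were in WT and 13.2% in cKO. Il6ra was called lower in each, as were 54.7% of all genes in WT and 50.4% in cKO, and Osm was not called. Between the genotypes at 4 h, Csf2 was called, at 8.95 times the WT mean in cKO, and the other 8 genes were not, where 20.8% of all genes were called higher and 4.17% lower. At 0 h none of the 7 members tested was called, against 8.99% of all genes higher and 5.61% lower. Genotypes were called at a difference of over 1.5-fold with a limma p under 0.05, the rule of the study, and stimulation at over 1.5-fold with a limma adjusted p under 0.05.

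**Figure D1:**
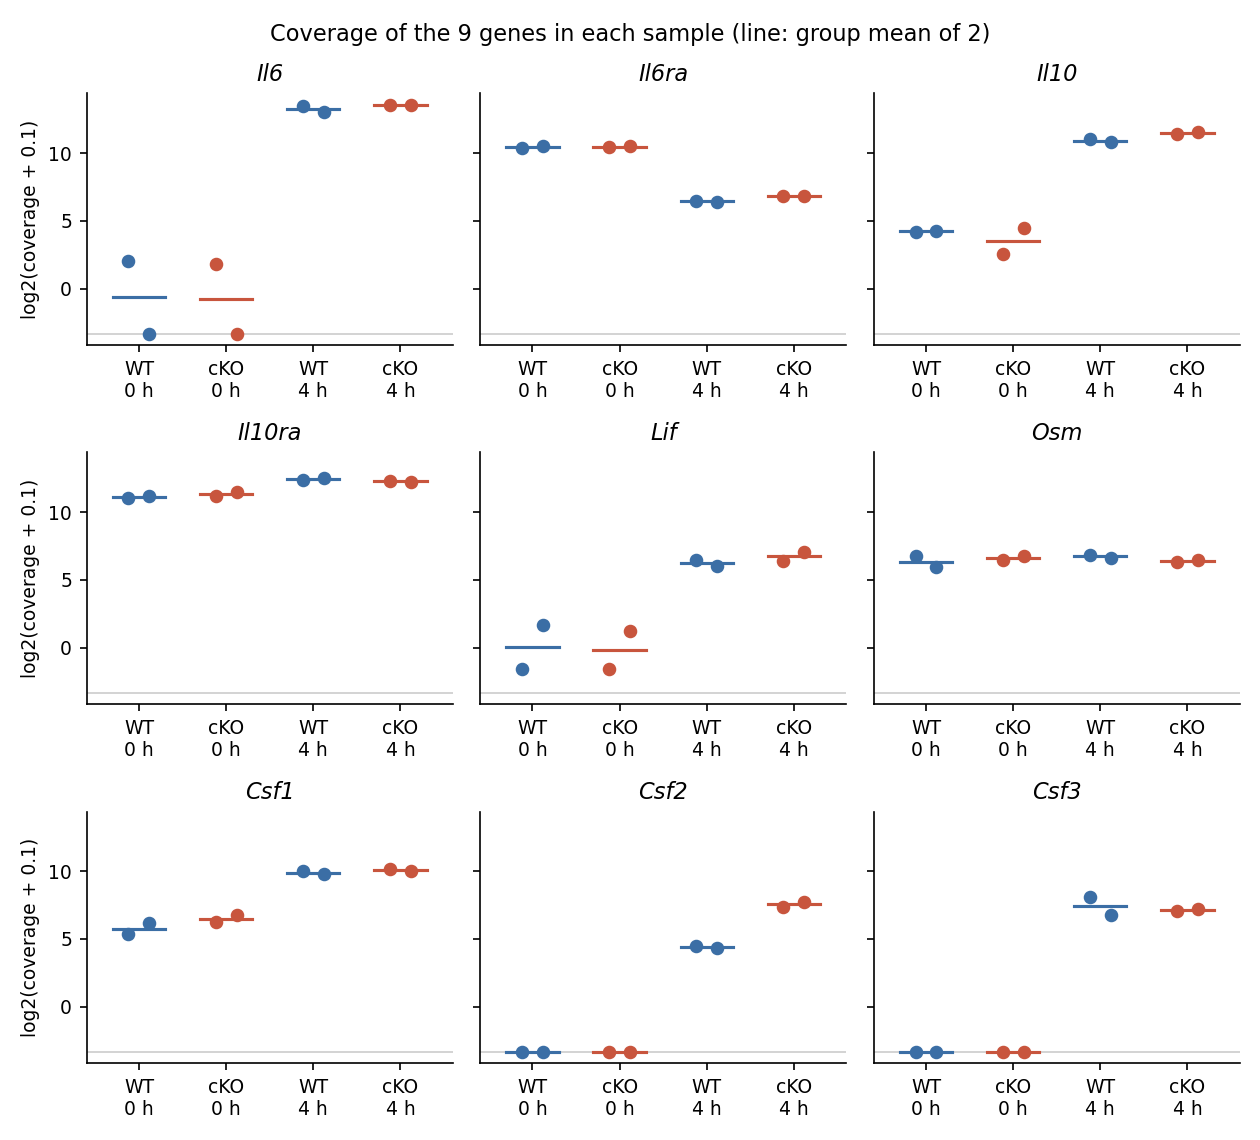
Coverage of each of the 9 genes in every sample, as log2(coverage + 0.1), with WT in blue and cKO in red, 2 samples per group, and a line at the mean of the log2 values. The grey line is a coverage of 0. The 2 cKO samples of Csf2 at 4 h sit at 166 and 211, above the WT samples at 22.6 and 19.6, and all 4 samples of Csf2 and of Csf3 at 0 h sit on the grey line.

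Csf2 encodes GM-CSF, the growth factor for granulocytes and macrophages. It lies on the minus strand of chromosome 11 (GRCm38, chr11:54247271-54249667, 4 exons in the GENCODE M21 annotation). At 4 h the WT samples had a coverage of 22.6 and 19.6, and the cKO samples of 166 and 211. The groups did not overlap, and the lower cKO sample exceeded the higher WT sample by several times. The log2 fold change was 3.15 ± 0.19 (SE, limma adjusted p = 0.0355), the 412th highest of 14950 genes tested, and an adjusted p under 0.05 was reached by 3.86% of all genes. The median gene was itself 0.31 higher in cKO on the log2 scale. With each sample centred on its median gene, which called 10.4% of genes higher and 9.9% lower, Csf2 was still called higher, at 2.81 (limma adjusted p = 0.0609). The difference stayed between 2.80 and 3.32 and was called in all 11 alternatives tried at 4 h, while its limma adjusted p ranged from 0.0009 to 0.204 and exceeded 0.05 after median centring, after quantile normalization (0.0563) and without any 1 of the 4 samples. Leaving out a sample leaves 1 in its group, which is then assumed to vary like the other group.

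At 0 h Csf2 was listed at 0 in all 4 samples, so the interaction of genotype and time, 3.15 ± 0.21 (SE, limma adjusted p = 0.0046), is the 4 h difference again. When replicate number was added as a block, this interaction was no longer called (limma adjusted p = 0.0981). Cells other than macrophages can make GM-CSF, and their markers are given beside it as summed coverage at 4 h. The T cell markers summed to 18.9 to 29.4 in WT and 16.3 to 25.7 in cKO, and the 2 mast cell markers present of 4 to 2.27 to 6.98 and 1.94 to 1.96, so neither sum was higher in cKO. The T cell sum was mostly Cd4, which was also at 140.3 to 197 in the 0 h samples, and no other T cell marker exceeded 5.94. The dendritic cell markers summed to 1356 to 2146 in WT and 1223 to 1253 in cKO, a sum made up mainly of Clec9a. Clec9a rose with stimulation, from a mean of 4.09 to 1542 in WT and from 5.31 to 1027 in cKO. Flt3 went from 2.40 to 1.17 and from 2.52 to 2.07. The 4 h sum is thus mostly that of a transcript that rose with stimulation. Between genotypes the dendritic cell markers did not move together. Xcr1 was called lower in cKO, at 4.64 and 2.32 against 17.5 and 52.4. Zbtb46, a transcription factor of dendritic cells, was called higher, at 16.6 and 23.9 against 6.59 and 7.08, also after median centring. Flt3 and Ccr7 were not called on the deposited scale, and neither was Clec9a, which was called lower after centring. The neutrophil markers summed to 14919 to 17865 in WT and 17082 to 19869 in cKO. The macrophage markers summed to 58313 to 62178 in WT and 68598 to 70898 in cKO, but without Cd68, which was at 12362 and 13101 in WT and 24827 and 28817 in cKO, the sums were 45951 to 49077 and 42081 to 43771. Their members moved both ways: Lyz2 and Mertk were also higher in cKO without overlap, and Adgre1, Fcgr1 and C1qa were lower without overlap. The Lyz2 locus carries the Cre in both genotypes, and the number of Cre copies was not given. The 4 fibroblast or stromal markers summed to 8.09 to 49.1 in WT and 39.1 to 55.5 in cKO at 4 h, mostly Col1a1, so that the ranges overlapped with cKO the higher. Of these, Col3a1 was called higher in cKO at 4 h, at 2.94 and 4.75 against 1.26 and 1.91, though not after median centring. At 0 h Col3a1 and Pdgfra were called higher in cKO, also after centring. The part of these cells in the Csf2 result was not tested. The gene Gm12223 overlaps Csf2 and was at 0 in all samples but 1 cKO sample at 4 h, where it had a coverage of 2.45. Of 74 annotated genes within 1 Mb of Csf2, 32 could be tested at 4 h. The rule called 9 of them higher and 1 lower, beside 20.8% and 4.17% of all genes, with a median log2 fold change of 0.36. After median centring 5 were called higher and 2 lower, beside 10.4% and 9.9% of all genes.

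The 3'UTR of a cytokine mRNA is where decay factors act, through AU-rich elements whose core is AUUUA, and NUDT21 is known to bind UGUA upstream of polyadenylation sites. These letters were therefore counted in the annotated 3'UTR of each gene. That of Csf2 has 317 bases and holds 9 copies of AUUUA and no UGUA. Of the 749 3'UTRs of similar length, counted with Csf2 itself, 0.134% hold at least as many AUUUA and 24.7% lack UGUA. Csf3 (669 bases) holds 6 AUUUA and no UGUA, and 6.83% of 3'UTRs of its length lack UGUA. Il6 (427 bases) holds 6 AUUUA and 2 UGUA, Il10 (706 bases) 6 and 4, Osm (1017 bases) 6 and 2, and Lif (3180 bases) 7 and 4. Csf1 (2111 bases) holds 4 AUUUA and 1 UGUA, Il10ra (1693 bases) 3 and 8, and Il6ra (7102 bases) 4 and 17. The share of 3'UTRs of similar length with at least as many AUUUA was 0.356% for Il6, 1.43% for Csf3, 1.76% for Il10 and 3.78% for Osm. It was 38.0% for Lif, 46.4% for Csf1, 49.6% for Il10ra and 95.2% for Il6ra. Over all 19271 3'UTRs, 62.4% hold AUUUA and 83.1% hold UGUA. The densest 30 bases of 4 members are shown 5′ to 3′ because the repeats are packed differently in them, with AUUUA in capitals.
Csf2: uuuuuaaauAUUUAUUUAUUUAUUUAUUUA
Csf3: gauaguuuAUUUAucucuAUUUAauAUUUA
Il6: uuuaauuauuuuuaAUUUAuugauaAUUUA
Il10: ccucguuuguaccucucuccgaaauAUUUA
In Csf2 (chr11:54247329-54247358, minus strand) 5 copies overlap in a row. In Csf3 (chr11:98702984-98703013, plus strand) 3 copies stand apart, in Il6 (chr5:30019677-30019706, plus strand) 2, and in Il10 (chr1:131024372-131024401, plus strand) 1. The coverage values give 1 level for the whole gene and do not show which polyadenylation site was used. The sequences are from GENCODE M21 on GRCm38.

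Csf3 encodes G-CSF, the growth factor for neutrophils (chr11:98701263-98703629, plus strand). Like Csf2 it was listed at 0 in all 4 samples at 0 h. At 4 h it stood at 276 and 111 in WT and 136 and 149 in cKO. The 2 WT samples lay on either side of the cKO samples, so the groups overlapped. The log2 fold change was -0.30 ± 0.54 (SE, limma adjusted p = 0.726). Its direction rested on 1 sample: without WT replicate 1 it was 0.36, and without WT replicate 2 it was -0.96 (limma adjusted p = 0.0981), which met the 1.5-fold rule. Csf2 and Csf3 thus shared their absence at 0 h and their appearance at 4 h, and in WT the level of Csf3 was above that of Csf2 in both samples, while in cKO the order was the other way round.

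Csf1 encodes M-CSF (chr3:107741048-107760469, minus strand). At 4 h it was at 1017 and 896 in WT and 1126 and 1052 in cKO. The cKO samples were both higher, by 0.19 ± 0.13 on the log2 scale (SE, limma adjusted p = 0.380). This was below the shift of the median gene, and with the samples centred on their medians the log2 fold change was -0.15. At 0 h Csf1 was at 41.0 and 71.9 in WT and 76.3 and 108 in cKO. Again the cKO samples were the higher ones, with a log2 fold change of 0.74 ± 0.39 (SE, limma adjusted p = 0.386), which was not called.

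Il6 (chr5:30013114-30019981, plus strand) encodes the cytokine of acute inflammation after which the family is named. At 4 h its coverage was 11455 and 8601 in WT and 12091 and 12012 in cKO, the highest level of the 9 genes in both genotypes. The cKO samples were both the higher ones, but the WT samples differed from each other by more than the cKO samples differed from the nearer of them. The log2 fold change was 0.28 ± 0.19 (SE, limma adjusted p = 0.390) and the gene was not called. With median centring it was -0.057, so the direction of the Il6 difference followed the scale. The study also measured Il6 mRNA by RT-qPCR, in BMDMs after a longer LPS treatment and in tissues and monocytes of its HLH model. It reports Il6 mRNA as lower in cKO there. Time, measure and samples differ from the coverage given here. The RT-qPCR primers for Il6 are shown because they mark the part of the transcript that was read.
Il6 forward primer: ccacttcacaagtcggaggc
Il6 reverse primer: ttctgcaagtgcatcatcgt
They match the Il6 transcript once each, in exons 2 and 3, and frame 116 bases of coding sequence that lie outside the 3'UTR.

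Lif and Osm are neighbours on chromosome 11, with 16530 bases between them, and encode ligands that share gp130 with IL-6. At 4 h Lif was at 90.3 and 66.5 in WT and 85.2 and 135 in cKO. The groups overlapped, and the log2 fold change was 0.47 ± 0.34 (SE, limma adjusted p = 0.407). For Osm the values were 116 and 98.5 in WT and 78.6 and 88.9 in cKO. Here both cKO samples were the lower ones, by a log2 fold change of -0.36 ± 0.15 (SE, limma adjusted p = 0.222), and the gene was not called. Its distance below the median gene was greater, and quantile normalization, which gives all samples the same distribution, made it called lower at -0.71 (limma adjusted p = 0.142).

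Il10 (chr1:131019845-131024974, plus strand) came nearest to the rule among the members that were not called. At 4 h it was at 2071 and 1796 in WT and 2688 and 3082 in cKO. Both cKO samples were higher, and the mean was 2885 ± 278 against 1934 ± 194 (SD, n = 2), a ratio of 1.49. The log2 fold change was 0.58 ± 0.15 (SE, limma adjusted p = 0.110). It passed 0.05 before adjustment and fell just short of 1.5-fold. Centred on the median gene it was 0.24 (limma adjusted p = 0.516). At 0 h Il10 was at 18.4 and 18.8 in WT and at 5.68 and 21.8 in cKO. The low cKO sample set the spread: without cKO replicate 4 the 0 h log2 fold change was -1.70 (limma adjusted p = 0.213), which met the rule, and without cKO replicate 3 it was 0.22.

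The receptor chains were the most abundant of the 9 transcripts before stimulation. Il6ra (chr3:89864059-89913196, minus strand), the chain that binds IL-6, was at 1364 and 1509 in WT and at 1397 and 1473 in cKO before stimulation. The cKO samples fell between the WT samples. At 4 h it was at 90.9 and 83.7 in WT and 113 and 118 in cKO. The groups no longer overlapped, with a log2 fold change of 0.40 ± 0.11 (SE, limma adjusted p = 0.116), and since this was under 1.5-fold the gene was not called. With the samples centred on their medians it was 0.066. Gm42809, which overlaps Il6ra, was at 0 in all samples at 4 h and did not exceed 1.47 at 0 h.

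Il10ra (chr9:45253837-45269149, minus strand), which binds IL-10, stood before stimulation at 2150.2 and 2345 in WT and 2395 and 2846 in cKO, so that the cKO samples were higher. At 4 h it was at 5334 and 5865 in WT and 5117 and 4793 in cKO, so that the cKO samples were lower. The log2 fold changes were 0.22 ± 0.15 and -0.18 ± 0.12 (SE, limma adjusted p = 0.475 and 0.375). The change in the genotype effect between the times was -0.39 ± 0.18 (SE, limma adjusted p = 0.296) and did not pass the test.

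**Figure D2:**
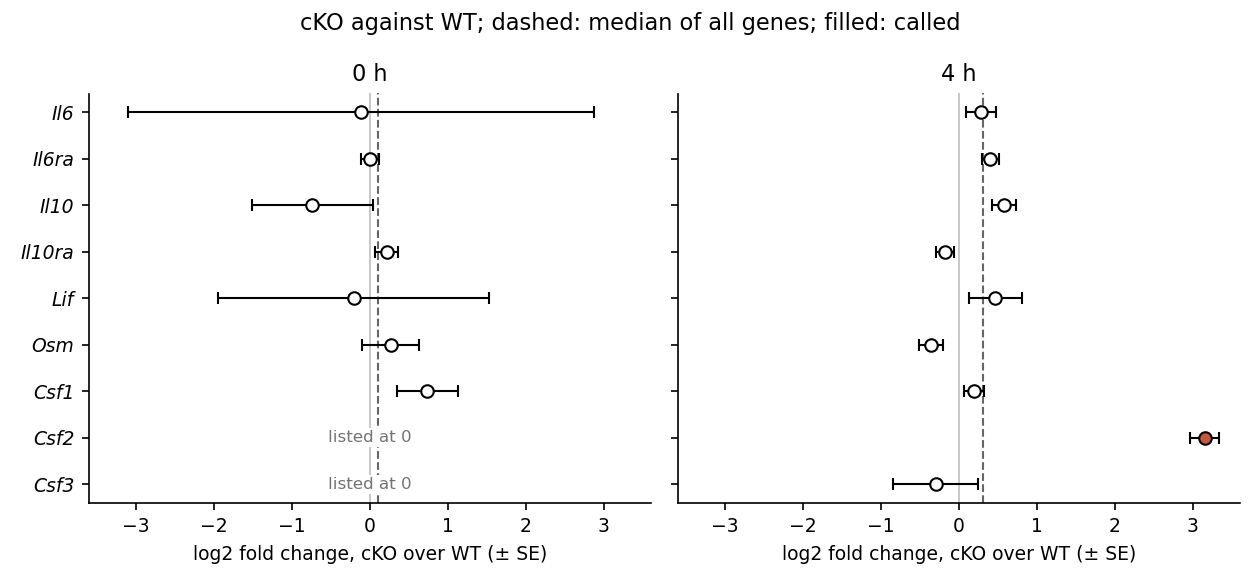
Log2 fold change of cKO over WT for each gene at 0 h and at 4 h, with the standard error from limma as bars, the median of all genes as a dashed line and called genes filled. At 4 h Csf2 lies at 3.15 and the other 8 genes between -0.36 and 0.58, around the median of all genes at 0.31.

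Set against all genes, the members other than Csf2 lay close to the bulk. At 4 h, 5 of the 9 genes had every cKO sample above every WT sample (Il6, Il6ra, Il10, Csf1 and Csf2), as did 51.1% of all genes, and 2 had every cKO sample below (Il10ra and Osm), as did 14.9%. The median log2 fold change of the 9 was 0.28, and that of all genes 0.31. These values are on the deposited scale, where total coverage was also higher in the cKO samples. At equal total coverage the 4 h log2 fold change was 0.068 for Il6, 0.19 for Il6ra, 0.37 for Il10, -0.022 for Csf1 and 2.94 for Csf2. That of the median gene was then 0.098. At 0 h a limma p under 0.05 was reached by 0 of the 7 members tested and by 21.3% of all genes. Non-overlap with cKO higher was seen in Il10ra and Csf1, and in 36.1% of all genes, and non-overlap with cKO lower in 0 members and 20.9% of all genes.

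**Figure D3:**
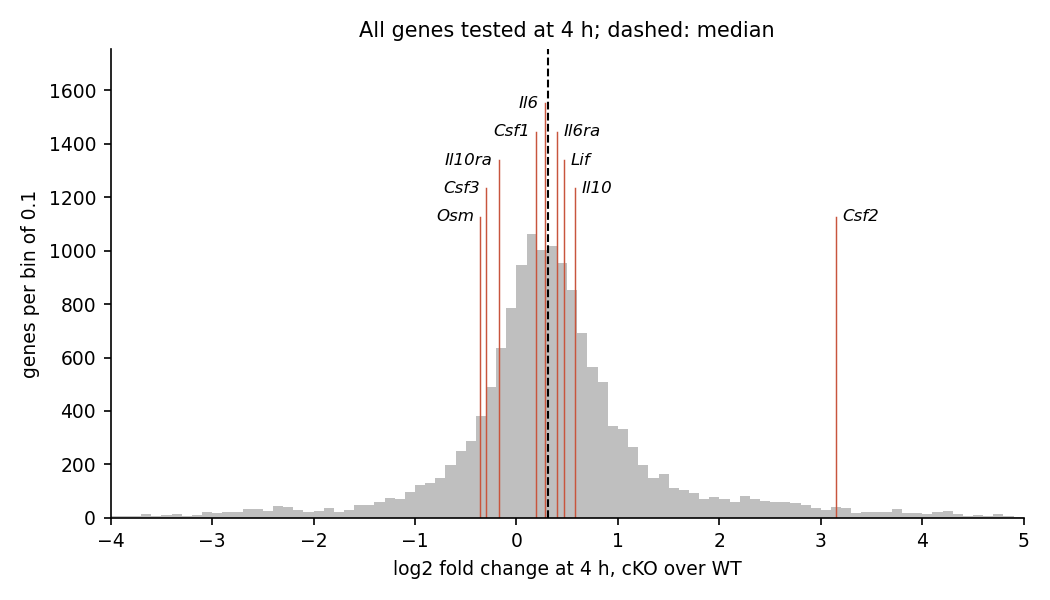
Number of genes by log2 fold change at 4 h (cKO over WT, bins of 0.1, the axis ending at -4 and 5), with the 9 members as red lines and the median of all 14950 genes, 0.31, dashed. Csf2 at 3.15 stands in the right tail, and Osm at -0.36 and Il10 at 0.58 bound the other 8 genes.

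The response to IFNγ/LPS was compared within each genotype. All genes had a median log2 fold change of -1.24 in WT and -1.03 in cKO between 0 h and 4 h, and changes of members stand against that shift.

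Il6 went from 4.03 and 0 to 11455 and 8601 in WT, and from 3.43 and 0 to 12091 and 12012 in cKO. Its log2 fold changes were 13.92 ± 2.34 in WT and 14.31 ± 2.34 in cKO (SE, limma adjusted p = 0.0037 and 0.0036), the seventh highest of 16284 genes in each genotype. The standard error was wide because 1 sample of each genotype was listed at 0 before stimulation, where the value rests on the pseudocount of 0.1. Without WT replicate 1 at 0 h the log2 fold change was 16.60 in WT and without WT replicate 2 it was 11.23. Without cKO replicate 3 at 0 h it was 16.88 in cKO and without cKO replicate 4 it was 11.74, and the gene was called each time. The ratio of means was 4978 in WT and 7018 in cKO.

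Il10 rose 104-fold in WT and 210-fold in cKO by the ratio of means, with log2 fold changes of 6.69 ± 0.61 and 8.0 ± 0.61 (SE, limma adjusted p = 0.0004 and 0.0003). The cKO value was 7.04 without cKO replicate 3 at 0 h and 8.96 without cKO replicate 4 at 0 h, and was called in each case. The difference of these responses, 1.31 ± 0.87 (SE), was not called (limma adjusted p = 0.442). It was called without cKO replicate 4 at 0 h, at 2.27 (limma adjusted p = 0.0310), and was 0.35 without cKO replicate 3 at 0 h.

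Lif went from 0.23 and 3.06 to 90.3 and 66.5 in WT, and from 0.23 and 2.31 to 85.2 and 135 in cKO. The log2 fold changes were 6.24 ± 1.38 and 6.91 ± 1.38 (SE, limma adjusted p = 0.0104 and 0.0076). Without WT replicate 1 at 0 h the WT value was 4.62 and without WT replicate 2 it was 7.86, while the cKO value was 5.48 without cKO replicate 3 at 0 h and 8.34 without cKO replicate 4, all of them called. The WT call was lost without WT replicate 1 at 4 h (6.02, limma adjusted p = 0.0505). Csf1 rose 16.9-fold in WT and 11.8-fold in cKO by the ratio of means, a log2 fold change of 4.13 ± 0.32 and 3.58 ± 0.32 (SE, limma adjusted p = 0.0002 and 0.0004).

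Csf2 and Csf3 rose from a listed value of 0, against which no fold can be given. At 4 h the mean of Csf2 was 21.1 ± 2.1 in WT and 189 ± 31.6 in cKO, and that of Csf3 was 194 ± 117 and 142 ± 8.78 (SD, n = 2).

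The 2 receptor chains moved in opposite directions. Il6ra fell 16.5-fold in WT and 12.4-fold in cKO by the ratio of means, with log2 fold changes of -4.04 ± 0.10 and -3.64 ± 0.10 (SE, limma adjusted p = 1.7e-05 and 2.1e-05). The fall exceeded that of the median gene in both genotypes, and after median centring, which called 33.8% of genes higher and 20.8% lower in WT and 31.5% and 20.8% in cKO, it was still called, at -2.57 and -2.43. Il10ra rose 2.49-fold in WT and 1.89-fold in cKO, with log2 fold changes of 1.32 ± 0.13 and 0.92 ± 0.13 (SE, limma adjusted p = 0.0005 and 0.0021). Ligand and receptor therefore moved apart for IL-6, and moved the same way for IL-10.

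Osm was the member that was not called in either genotype. It was at 107 and 61.1 at 0 h and 116 and 98.5 at 4 h in WT, and at 86.8 and 109 at 0 h and 78.6 and 88.9 at 4 h in cKO. The 0 h and 4 h samples overlapped in each genotype. The log2 fold changes were 0.40 ± 0.30 and -0.22 ± 0.30 (SE, limma adjusted p = 0.278 and 0.539). Against the falling median gene Osm was higher at 4 h: with median centring it was called higher at 1.87 in WT and at 0.98 in cKO, where the direction reversed. In WT the call also depended on 1 sample, at 0.81 (limma adjusted p = 0.0344) without WT replicate 1 at 0 h and at -0.0024 without WT replicate 2 at 0 h.

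**Figure D4:**
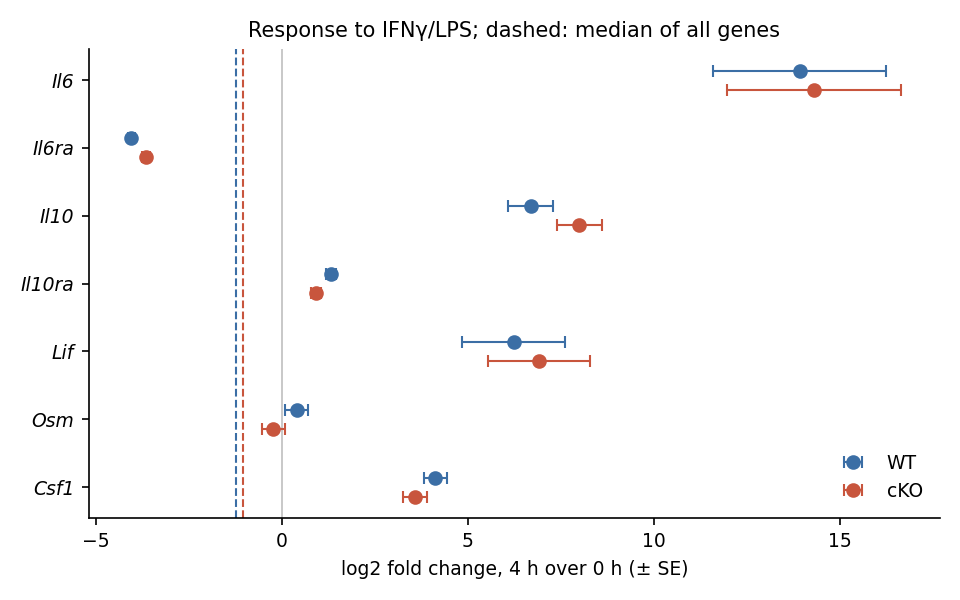
Log2 fold change between 0 h and 4 h of IFNγ/LPS for the 7 genes detected at 0 h, in WT (blue) and cKO (red), with the standard error from limma as bars and the median of all genes dashed. Il6ra lies at -4.04 and -3.64, left of the medians at -1.24 and -1.03, and Il6 lies farthest to the right.

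The order of the levels changed with stimulation. At 0 h it ran in both genotypes from Il10ra and Il6ra through Osm, Csf1 and Il10 to Il6 and Lif, with Csf2 and Csf3 at 0. The ranges of Osm and Csf1 overlapped, as did those of Il6 and Lif. At 4 h the first 4 places were taken in both genotypes by Il6, Il10ra, Il10 and Csf1, each separate from the next. Below them WT ran Csf3, Osm, Il6ra, Lif and Csf2, with Csf3 overlapping Osm and Il6ra overlapping Lif. In cKO it ran Csf2, Csf3, Il6ra, Lif and Osm, with Il6ra overlapping Lif and Lif overlapping Osm. Csf2 thus stood last of the 9 in WT and 5th in cKO, while the means of the other members kept their order apart from Osm.

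The genes whose profile over the 8 samples was most like that of a member were found by the distance between log2 values after each gene was centred on its mean, over 16284 genes. For Il10 they were Slco3a1, Rnd1 and Mycl, at distances of 0.92, 1.23 and 1.36 with Pearson's r of 0.996, 0.993 and 0.993. For Csf1 they were Gm37787, Cflar and Gm11626, at 0.65, 0.73 and 0.74. For Il6 the nearest were Cxcl10, Gbp2b and Ccl12, at 5.52, 5.55 and 5.57 with Pearson's r of 0.964, 0.966 and 0.963. These distances rest on the 0 h samples, where Il6 was at 4.03 and 0 in WT and 3.43 and 0 in cKO. A value of 0 takes the pseudocount, so the distances do not show that the Il6 profile differs from those of other genes. The 8 points fall into the 2 times, which sets the size of these correlations, and they are given as a description.

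The partners of the members were read from 4 lists. Among 10 receptor chains, 3 were called higher and 0 lower in cKO at 4 h, where 20.8% and 4.17% of all genes were, with a median log2 fold change of -0.036 against 0.31 for all genes. After median centring, which called 10.4% and 9.9% of all genes, 2 were called higher and 2 lower. Csf2ra, the chain specific to GM-CSF, was at 5283 and 4671 in WT and 9556 and 10385 in cKO, a log2 fold change of 1.0 ± 0.13 (SE, limma adjusted p = 0.0585). Csf2rb, the signalling chain it pairs with, lay in the other direction. It was at 1886 and 2174 in WT and 1571 and 1429 in cKO, a log2 fold change of -0.43 ± 0.14 (SE, limma adjusted p = 0.145). It was not called on the deposited scale and was called lower after median centring, as was its close copy Csf2rb2, and reads of such copies may be shared between them.

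Il6st, which encodes gp130, was at 133 and 146 in WT and 239.5 and 251 in cKO (log2 fold change 0.82 ± 0.11, SE, limma adjusted p = 0.0617), and was not called after median centring. Il11ra1, the receptor chain for IL-11, was at 239.5 and 280.0 in WT and 642 and 721 in cKO (1.39 ± 0.15, SE, limma adjusted p = 0.0529). The M-CSF receptor Csf1r, at 13236 and 13969 in WT and 13055 and 13312 in cKO, was not called and its samples overlapped, and the same was true of the G-CSF receptor Csf3r, with group means of 989 in WT and 969 in cKO. At 0 h both stood lower in cKO without overlap. Csf1r was at 26255 and 30290.2 in cKO against 38697 and 44260 in WT (-0.55 ± 0.15, SE, limma adjusted p = 0.198), and Csf3r was at 2181 and 2397 against 3067 and 3099 (-0.43 ± 0.11, SE, limma adjusted p = 0.192). Neither reached 1.5-fold on the deposited scale. Of the macrophage markers at 0 h, Adgre1, Fcgr1 and C1qa were called lower in cKO and Cd68 higher, also after median centring. The rule called 8.99% of all genes higher and 5.61% lower. The neutrophil markers summed to 18586 to 19509 in WT and 21173 to 28229 in cKO at 0 h. A link of these markers to the receptor values was not tested. At 0 h 1 of the 10 receptor chains was called, Lifr, lower in cKO at 24.7 and 23.4 against 43.5 and 32.7 in WT. After median centring, which called 7.25% of all genes higher and 6.98% lower at 0 h, Csf1r and Lifr were called lower. Between 0 h and 4 h, 7 of the 10 were called lower in each genotype, where 54.7% of all genes were in WT and 50.4% in cKO. Most of these calls did not hold against the fall of the median gene. After median centring 4 were called higher and 1 lower in WT, beside 33.8% and 20.8% of all genes. In cKO 1 was called higher and 1 lower, beside 31.5% and 20.8%. The chain still called lower was Il6st in both genotypes, at -0.89 in WT and -0.62 in cKO. Csf2ra was called higher in cKO on the deposited scale, from 6292 and 6572 to 9556 and 10385 (limma adjusted p = 0.0124), and after centring it was called higher in both genotypes.

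Of 9 related ligands, 8 were in the tables and 5 could be tested between genotypes at 4 h. The rule called 1 of the 5 higher, as it did 20.8% of all genes. This was Il34, the other ligand of the M-CSF receptor, at the low coverage of 5.16 and 6.99 in cKO against 1.5 and 2.78 in WT. Il27, which encodes a subunit of IL-27, reached 54903 and 43189.9 in WT and 43959.9 and 39748 in cKO by 4 h, with overlapping groups. Clcf1, a gp130 ligand, rose from 12.9 and 24.5 to 663 and 394 in WT and from 17.4 and 15.1 to 654 and 525 in cKO, also with overlap between genotypes at 4 h.

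The third list held signalling and feedback genes that act below these receptors. Of 11 tested at 4 h, 0 were called higher and 1 lower, beside 20.8% and 4.17% of all genes, with a median log2 fold change of 0.40. After median centring 0 were called higher and 2 lower, beside 10.4% and 9.9% of all genes. The gene called on the deposited scale was Cish, an inhibitor induced by STAT5, at 405 and 371 in WT and 247 and 242 in cKO (-0.66 ± 0.11, SE, limma adjusted p = 0.0694). Socs3, the inhibitor of gp130 signalling, was at 14706 and 12399.7 in WT and 19911 and 19933 in cKO. Both of its cKO samples were higher, the log2 fold change was 0.56 ± 0.14 (SE, limma adjusted p = 0.104) and it was not called. With stimulation, 7 of the 11 were called higher and 1 lower in each genotype, where 11.7% of all genes were higher and 54.7% lower in WT and 13.2% and 50.4% in cKO. After median centring, which called 33.8% of all genes higher in WT and 31.5% in cKO, all 11 were called higher in each genotype. Socs3 rose from 32.7 and 33.1 to 14706 and 12399.7 in WT, and Jak2, a kinase bound to the GM-CSF receptor, from 499.5 and 508 to 7093 and 7378. In cKO Jak2 rose from 417 and 468 to 5983 and 5633. At 4 h Jak2 was lower in cKO than in WT without overlap, and it was called lower only after median centring, at -0.65.

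The last list held 13 genes that control cytokine mRNA or its transcription. In cKO at 4 h, 6 were called higher and 0 lower, beside 20.8% and 4.17% of all genes, with a median log2 fold change of 0.57. After median centring, which called 10.4% of all genes higher and 9.9% lower, 3 were called higher and 0 lower. Cebpb, a transcription factor of cytokine and myeloid genes, was at 5849.7 and 4915 in WT and 11412 and 13751 in cKO (1.22 ± 0.18, SE, limma adjusted p = 0.0632). Rc3h1, which encodes the mRNA decay factor Roquin-1, was at 380.4 and 415 in WT and 876 and 886 in cKO (1.15 ± 0.11, SE, limma adjusted p = 0.0489) and was called higher at 0 h as well. Arid5a, which encodes a protein that stabilises Il6 mRNA, was at 792 and 904 in WT and 1487 and 1921 in cKO (1.0 ± 0.19, SE, limma adjusted p = 0.0803).

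Other factors that act on cytokine mRNA gave a range of values. Zfp36, which encodes tristetraprolin, was at 597 and 634 in WT and 603 and 631 in cKO, with overlapping groups and a log2 fold change of 0.0035 ± 0.10 (SE, limma adjusted p = 0.984), which was -0.33 after median centring. Its relative Zfp36l2 was called higher, at 457 and 609 in cKO against 260.0 and 172 in WT (1.32 ± 0.31, SE, limma adjusted p = 0.0984), and was not called after median centring. Khsrp was called higher on the deposited scale, at 694 and 687 against 362 and 434, and not after centring. Zc3h12a, which encodes the nuclease Regnase-1, was at 5103 and 5324 in cKO against 3607 and 3409.5 in WT and was not called (0.57 ± 0.10, SE, limma adjusted p = 0.0758). The changes of the genotype effect between the times gave 0 calls in each of the 4 lists, and 2.28% of all genes were called in the upward and 0.761% in the downward direction.

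**Figure D5:**
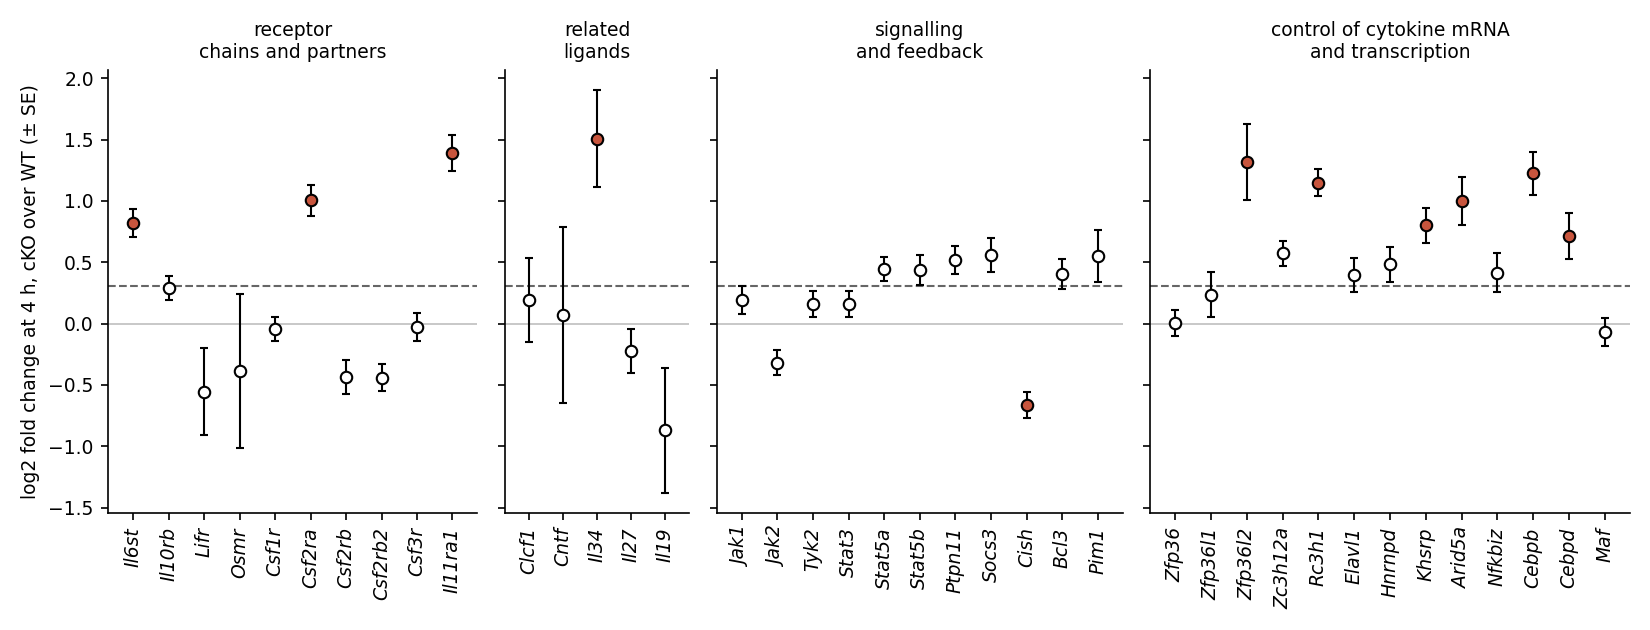
Log2 fold change of cKO over WT at 4 h for the tested genes of the 4 lists, with the standard error from limma as bars, called genes filled and the median of all genes (0.31) dashed. In the receptor panel Csf2ra at 1.0 and Csf2rb at -0.43 lie on opposite sides of 0, and in the last panel 6 of 13 genes are filled, all above 0.

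Because 7 of the members rose with stimulation, promoters were searched for motifs of factors activated by LPS. RefSeq promoter windows, 250 bases before to 50 after the start on GRCm38.p6, were at hand for 5 of the 9 genes (Il6, Il6ra, Csf1, Csf2 and Lif). For Csf2 the window belongs to a longer transcript model and lies wholly upstream of the GENCODE start, so the stretch next to that start was not searched. On both strands, a κB motif, the site of NF-κB, was matched in Il6, Lif and Csf1, and in 8.46% of all 32851 promoters. Like most promoters, the window of Il6ra and the upstream window of Csf2 held no match. The windows are shown because they hold the matched stretch, which differs in its letters between the 3 genes and is given in capitals.
Il6: tatcaaatgtGGGATTTTCCcatgagtctc
Lif: atcaagtacaGGGACGCCCCctccccacac
Csf1: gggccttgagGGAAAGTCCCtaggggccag
The window of Il6 is chr5:30013060-30013089 on the plus strand, with the motif at -44 to -35 from the start. That of Lif is chr11:4257380-4257409 on the plus strand (-178 to -169), and that of Csf1 is chr3:107760604-107760633 on the minus strand (-154 to -145), where the motif is read on the opposite strand. An AP-1 motif (TGACTCA or TGAGTCA) was matched in Il6 and Lif and in 5.20% of all promoters. A C/EBP motif (TT, any 2 bases, then GCAA) was matched in Il6 and Csf2 and in 10.8% of all. A STAT motif (TTC and GAA with any 3 bases between) was matched in none of the 5 and in 8.30% of all. A match says only that the letters are there.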

How the data were processed

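RNA-seq of BMDMs was available for 8 samples, 2 for each of WT and cKO at 0 h and 4 h, grouped by their titles. Although the labels list the stimulation for every sample, those titled 0 h were read as untreated. The authors aligned reads to GRCm38 with HISAT2 2.2.1, quantified RefSeq genes with StringTie 2.1.7 and deposited coverage, a signal that is unscaled between samples, for each gene in 1 table per time. The unit was read from the values. The tables also hold the authors' fold changes and p-values, which were not used. The columns of per-sample values left unused numbered 0.

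Coverage is not a count, so no count test was run, and log2(coverage + 0.1) was compared with limma 3.58.1 in R 4.3.3 for genes whose coverage averaged at least 0.5. Genotypes were compared within a time (4 samples), and stimulation and the interaction in a fit of 4 group means over all 8. Adjusted p-values are Benjamini-Hochberg over all genes tested. A fold change on this scale understates changes of low genes. The scripts were tested on simulated data. The 9 members, Nudt21 and the 4 partner lists were named by a rule that covers every member whatever its result, and genes of the lists were named as examples after their values were seen. The members and lists were chosen with earlier results of these data known. Alternatives covered pseudocount, filter, scaling, samples in the fit, replicate block and each sample left out. The study describes its BMDM data points as biological replicates, but does not say for the sequenced pools whether cultures were separate, and p-values measure only the spread between these samples. 3'UTRs and positions came from GENCODE M21, promoters from RefSeq, and promoters of the other 4 members were not analysed here.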

Additional observations from a re-analysis of the deposited data

Results flagged for a closer look

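The difference between the genotypes in Csf2 was larger after stimulation than before it, by 3.15 on the log2 scale in the interaction over all 8 samples (SE 0.21, limma adjusted p = 0.0046). With the replicate number as a block it was no longer called (limma adjusted p = 0.0981). Both cKO samples exceeded both WT samples at 4 h. Csf2 was listed at 0 in all 4 samples at 0 h, so this value repeats the 4 h difference and carries no information on the genotypes before stimulation, and the absence of spread at 0 h lowers the variance estimate behind its p.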

How the results depend on the processing

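On the deposited scale the median gene lay 0.31 higher in cKO at 4 h, and 0.098 higher at equal total coverage, so scaling moved counts. At 4 h 3112 genes were called higher and 624 lower, against 1552 and 1480 with each sample centred on its median, 1941 and 1013 at equal total coverage and 1530 and 1476 with quantile normalization, which also called 1 member lower (Osm). Genes with a limma adjusted p under 0.05 at 4 h numbered 577, against 236, 198 and 274 under these scalings, 1306 with pseudocount 1, 207 with no filter on low genes, 899 with the filter raised to 1 and 4092 with all 8 samples. At 0 h they numbered 167, against 92 with pseudocount 1 and 897 with all 8 samples. For stimulation, centring gave 5499 higher and 3392 lower in WT and 5131 and 3391 in cKO, and quantile normalization 3514 and 4636, and 3366 and 4671. The interaction called 372 genes higher, 174 after centring and 210 after quantile normalization.

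Values that reversed were, with centring, Il6 (-0.057) and Csf1 (-0.15) at 4 h, Osm in cKO (0.98) and Nudt21 (1.19 in WT, 0.83 in cKO) over stimulation. At equal total coverage they were Csf1 at 4 h (-0.022) and the 0 h median of all genes (-0.021). With quantile normalization they were Csf1 at 4 h (-0.077), Osm in cKO (1.01) and Nudt21 (0.38 and 0.75) over stimulation, and the Nudt21 interaction (0.37). The other single values of the members, Nudt21 and the median of all genes kept their direction under these scalings, the pseudocount and the filters. Genes of the lists were rescaled by centring alone, which turned, among others, Zfp36 at 4 h (-0.33) and Csf2ra over stimulation in WT (1.18).

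Replicate numbers recur between times within a genotype. Same-numbered samples hardly deviated together (correlations 0.020 in WT, 0.024 in cKO), and no source says whether a number marks the same pool at both times, so the samples were not treated as pairs. With the replicate block the interaction called 15 genes higher, 16 lower and 0 members, and Csf2 had 3.15 with a limma adjusted p of 0.0981.

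Leaving out a sample left 1 in its group, whose variation was assumed to be that of the other groups. With each sample left out in turn, Csf2 at 4 h stayed called and between 2.98 and 3.32. The counts at 4 h ran from 1765 to 4000 called higher and from 478 to 862 called lower, with 0 to 1 member lower (Csf3 without WT replicate 2), and no gene kept an adjusted p under 0.05 at 0 h or 4 h (0 to 0 genes). At 0 h 876 to 1009 genes and 0 to 1 member were called lower (Il10 without cKO replicate 4). The interaction called 117 to 546 genes higher, 67 to 146 lower and 1 to 2 members. Directions that turned were, at 0 h, Il6 (-2.80 to 2.57), Il6ra (-0.073 to 0.073), Il10 (-1.70 to 0.22), Lif (-1.82 to 1.41) and Osm (-0.14 to 0.67), at 4 h Csf3 (-0.96 to 0.36), over stimulation in WT Osm (-0.0024 to 0.81), and in the interaction Il6 (-2.29 to 3.08), Lif (-0.94 to 2.29), Csf3 (-0.96 to 0.36) and Nudt21 (-0.25 to 0.060).

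With 2 samples per group, small differences could not be told from the spread. The count tests planned for count files were not run on coverage. The cause of the changes listed here was not tested.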
